A study of Homo sapiens with 32 samples.

Results

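TNFAIP6 and 8 genes that make, cut or bind hyaluronan (HAS2, HAS3, HYAL1, HYAL2, HYAL3, CEMIP, CD44 and UGDH) were followed across 32 RNA-seq libraries of EPC2, an hTERT-immortalized human esophageal epithelial cell line. All 9 symbols were found in the table of 19345 genes. Monolayer cells were sampled at day 0 (10 libraries). Spheroids grown in Matrigel were sampled at day 3 without IL-13 (D3, 9 libraries), at day 11 after IL-13 at 20 ng/ml from day 3 onwards (D11 IL-13, 6 libraries) and at day 11 untreated (D11 UT, 7 libraries). All groups are wild type in the labels and come from 1 cell line. The spheroids also shared a calcium-supplemented serum-free keratinocyte medium and a ROCK inhibitor, Y27632, in the medium at seeding. The labels give 2 independent experiments as batches 1 and 2. Values are TPM (a relative transcript abundance that sums to the same total in each library), which are scaled by gene length, so that levels of different genes can be set side by side.

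Hyaluronan is an unsulfated glycosaminoglycan of the extracellular matrix that hyaluronan synthases of the plasma membrane (the HAS genes) extrude from UDP-glucuronic acid and UDP-N-acetylglucosamine. UGDH makes the first of these precursors. Hyaluronidases (HYAL1, HYAL2) and the hyaluronan-binding protein CEMIP take part in its breakdown, and CD44 is its main cell surface receptor on epithelial cells. TNFAIP6 encodes TSG-6, a secreted protein known for its induction by inflammatory cytokines, which binds hyaluronan and transfers heavy chains of inter-alpha-inhibitor onto it. In squamous epithelia hyaluronan fills the spaces between the basal and lower suprabasal cells.

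The gene at which the IL-13 and untreated spheroids stood furthest apart among the 9 was TNFAIP6, whose promoter is therefore shown. The bases that precede the gene's start, from RefSeq on GRCh38.p14, lie on the plus strand at chr2:151357342-151357591. Capitals mark the single AP-1 type match (TGANTCA, searched on both strands), from 129 to 123 bases before the start.
TNFAIP6 promoter: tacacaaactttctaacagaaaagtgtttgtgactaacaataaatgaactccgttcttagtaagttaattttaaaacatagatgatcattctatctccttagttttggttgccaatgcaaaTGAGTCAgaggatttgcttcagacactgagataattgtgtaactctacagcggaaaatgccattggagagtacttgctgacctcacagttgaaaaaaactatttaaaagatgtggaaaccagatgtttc
An AP-1 type match was present in 6.59% of 34943 promoters of the same length, 250 bases. Searched on both strands, the TNFAIP6 window held neither a STAT6 type match (TTC, any 4 bases, GAA, in 5.39% of promoters), nor a general STAT type match (TTC, any 3 bases, GAA, in 6.56%), nor TATAAA (in 10.8%). Promoters were matched for 8 of the 9 genes, 9 in all because HYAL3 has a pair. Among the other 7 genes, the CEMIP window held TATAAA 30 bases before its start, and no other match to these motifs was found.

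The libraries differed in ways that bear on every value below. Mitochondrially encoded genes made up 44.8 to 50.1% of the TPM in monolayers, 39.1 to 57.1% in D3 spheroids, 13.2 to 25.6% in IL-13 spheroids and 14.8 to 27.9% in untreated D11 spheroids. The median log2 difference of all 12221 genes tested was -0.44 for D3 spheroids against monolayers, -0.02 for untreated D11 against D3 spheroids, -0.48 for untreated D11 spheroids against monolayers and 0.19 for IL-13 against untreated D11 spheroids. Differences of the genes below are given as measured and, where it matters, after this median is taken off. Shares of all genes called are those of TPM as deposited. Counts under another scaling have no such share beside them, so nothing is read from how they shift. Removing mitochondrial genes raises all other genes of a library by the same factor, which is larger where the mitochondrial share is larger. D3 library 4, labelled batch 1, correlated more closely with D3 libraries of batch 2 (mean r = 0.986) than with those of batch 1 (0.969). D3 library 7, labelled batch 2, did the reverse (0.971 with batch 2 and 0.985 with batch 1). IL-13 library 1 stood apart from the other 5 IL-13 libraries on the first principal component (78.3, against 49.4 to 56.7) and had the lowest mitochondrial share of them. All 8 squamous epithelial markers reached 1 TPM in 6 libraries, with KRT4 listed at 0 in every monolayer. Of 9 fibroblast markers only POSTN reached 1 TPM in 6 libraries, and COL1A2 and COL3A1 were listed at 0 in all groups. No endothelial marker of 4 and no columnar epithelial marker of 5 reached that level, and of 8 immune markers CD68 and CSF1R did.

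The 9 genes were chosen by their TPM in these 4 groups and the differences between them, so their differences between groups are a description, given as log2(TPM + 1) differences with limma's standard error and without p-values. They passed a threshold when limma's Benjamini-Hochberg adjusted p, taken over all 12221 genes, was under 0.05. Passing or missing this threshold between groups is part of that description and tests nothing. TNFAIP6 reached 1 TPM only in the 6 IL-13 libraries and so was tested only through that group. CEMIP did not reach 1 TPM in 6 libraries and was not tested.

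TNFAIP6 was high in every IL-13 library and at or near 0 elsewhere. The 6 IL-13 libraries held 52.3, 257.5, 258.5, 271.7, 291.7 and 352.9 TPM, against 0 in 6 and 0.1 TPM in 1 of the 7 untreated D11 libraries. All 10 monolayers were listed at 0, as were 8 of the 9 D3 spheroids, with 0.1 TPM in the other. The IL-13 libraries overlapped no library of another group. A listed 0 does not show that the transcript was missing: PSMA1, a proteasome subunit that every cell uses, was listed at 0 in every untreated D11 library and at no more than 0.1 TPM in the other groups. PSMA1 was thus low in all groups, unlike TNFAIP6. Of 229 genes of core cell machinery looked at, 4 were listed at 0 in every library of at least 1 group. Of these, 0 stood at 1 TPM or more in every library of another group, as TNFAIP6 did. No fold change is given for TNFAIP6, because its level in untreated libraries is at or near 0. On the log2(TPM + 1) scale the IL-13 group lay 7.73 ± 0.23 (SE) above the untreated D11 group, and this size depends on the pseudocount, being 10.93 with 0.1 TPM and 5.46 with 5 TPM. Under the 3 other scalings tried it lay between 7.50 and 8.07.

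The spread of TNFAIP6 among the IL-13 libraries came largely from library 1, at 52.3 TPM. Library 1 was also lowest for CAPN14, an esophageal calpain known for its induction by IL-13 (90.2 TPM, against 147.3 to 208.6 TPM in the other 5), and for CCL26, the eosinophil chemokine eotaxin-3 (0.4 TPM, against 1 to 2.2 TPM). The untreated D11 libraries held 0.1 to 0.2 TPM of CAPN14. Without library 1 the mean of TNFAIP6 was 286.5 ± 39.6 TPM (SD, n = 5), whereas with it the mean was 247 ± 102 TPM (SD, n = 6). Without library 1 the log2 difference between IL-13 and untreated D11 spheroids was 8.14. The column numbers of the IL-13 libraries could not be matched to single samples, so whether library 1 is the single batch 2 sample of that group could not be told.

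**Figure D1:**
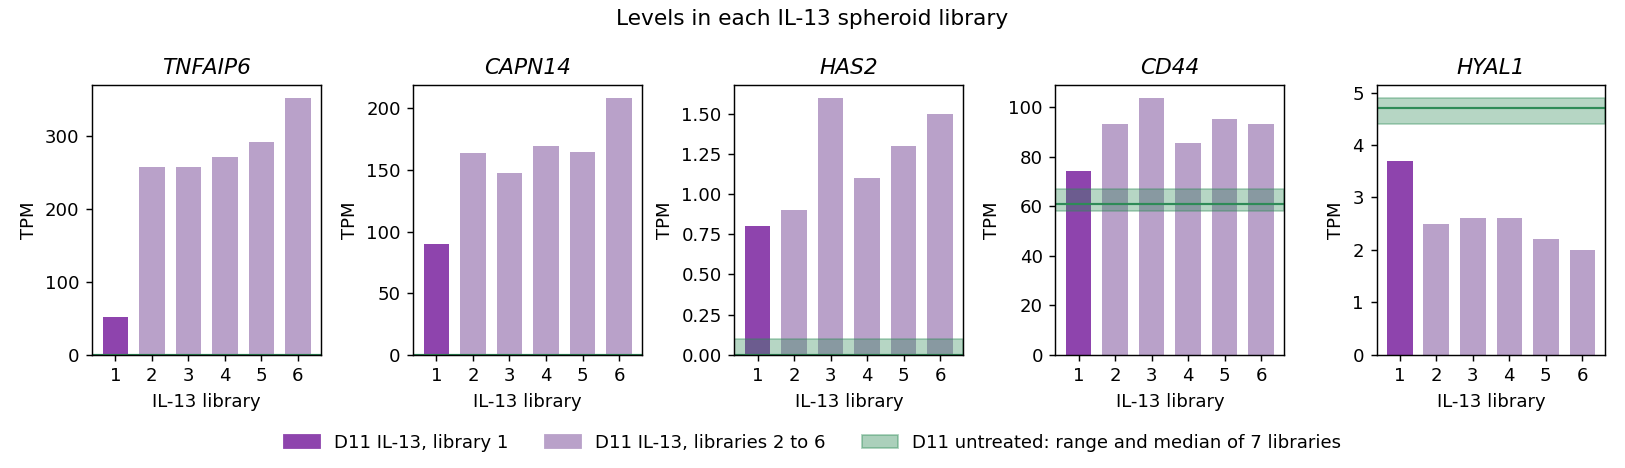
Level in TPM (vertical axes, from 0) of 5 genes in each of the 6 IL-13 spheroid libraries (bars, library 1 in the darker colour), with the range and median of the 7 untreated D11 libraries as a green band and line. Library 1 holds 52.3 TPM of TNFAIP6, against 257.5 to 352.9 TPM in the other 5, and lies nearest to the untreated band for CD44 and HYAL1 as well.

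POSTN, a matricellular protein of fibroblasts that epithelial cells can also make, was also higher in IL-13 spheroids: it averaged 3.43 ± 1.23 TPM in IL-13 spheroids (SD, n = 6) and 0.186 ± 0.0378 TPM in untreated D11 spheroids (SD, n = 7). The summed level of the 9 fibroblast markers was 1.1 to 4.9 TPM in IL-13 spheroids, against 0.1 to 0.3 TPM in untreated D11 spheroids, 0 to 0.2 TPM in D3 spheroids and 2.4 to 4.6 TPM in monolayers. POSTN made up most of this sum in IL-13 spheroids and monolayers. Of the 9 markers, 6 were listed at 0 throughout the IL-13 group (COL1A2, COL3A1, LUM, PDGFRA, PDGFRB and COL6A3) and 6 throughout the untreated D11 group (FAP in place of PDGFRA). FAP stood at 0.1 TPM in 2 of the 6 IL-13 libraries. The part of these markers in the TNFAIP6 difference was not tested. In bulk RNA, a change in the number of cells of a type and a change in RNA per cell cannot be told apart.

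Among the genes whose levels followed TNFAIP6 most closely over the 32 libraries were CAPN14 (r = 0.997), RASGRP1 (0.997), CLDN5 (0.996), NFE2 (0.992) and GATA3 (0.992). Each of these 5 had its lowest IL-13 library above the highest library of every other group, which follows from picking them by this correlation. All 5 stood at no more than 0.5 TPM outside the IL-13 group and so were tested only through it. These correlations rest on the step between the IL-13 group and the rest, and the libraries share batches. After the mean of each group was taken off, the 6 closest genes were CDH26 (r = 0.946), CAPN14 (0.922), GCNT3 (0.916), CLCA4 (0.910), CANT1 (0.899) and TRAPPC6A (0.895). That remaining variation of TNFAIP6 lies almost wholly among the 6 IL-13 libraries, with library 1 far below the others. CAPN14 was on both lists. TRAPPC6A, at 0 to 4.9 TPM in the IL-13 group, was listed at 0 in every monolayer and every untreated D11 library, so its zeros carry the same doubt as those of PSMA1.

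The hyaluronan synthases did not move together. HAS3 was the most abundant synthase in every group, with 95.0 ± 1.09% of the summed TPM of HAS1, HAS2 and HAS3 in monolayers (SD, n = 10), 99.0 ± 0.609% in D3 spheroids (n = 9), 91.3 ± 1.63% in IL-13 spheroids (n = 6) and 96.9 ± 1.21% in untreated D11 spheroids (n = 7). HAS1 never exceeded 1.2 TPM and was not tested. The sum of the 3 synthases was 27.3 ± 9.50 TPM in monolayers, 48.2 ± 5.35 TPM in D3 spheroids, 23.5 ± 5.64 TPM in IL-13 spheroids and 25.6 ± 6.54 TPM in untreated D11 spheroids (SD).

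HAS2, the synthase most often tied to inducible hyaluronan production, reached a low level in monolayers and IL-13 spheroids and was at or near 0 in the other spheroids. The 6 IL-13 libraries held 0.8, 0.9, 1.6, 1.1, 1.3 and 1.5 TPM, against 0 in 6 and 0.1 TPM in 1 of the 7 untreated D11 libraries. Monolayers ranged from 0.2 to 2 TPM with a median of 0.95 TPM, and all 9 D3 spheroids were listed at 0. The IL-13 and untreated D11 groups did not overlap, nor did D3 spheroids and monolayers, whereas IL-13 spheroids and monolayers did. On the log2(TPM + 1) scale HAS2 lay 1.01 ± 0.15 (SE) higher in IL-13 than in untreated D11 spheroids and differed by -0.91 ± 0.12 between D3 spheroids and monolayers. Without IL-13 library 1 the first of these differences was 1.06. HAS2 made up 5.15 ± 0.891% of the synthase sum in IL-13 spheroids (SD, n = 6), and at most 0.565% in any untreated D11 library.

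HAS3 peaked at day 3. D3 libraries held 40.1 to 53.7 TPM (median 48.6), untreated D11 libraries 17.2 to 33 TPM (median 25.9) and monolayers 16.4 to 37.3 TPM (median 25.3). IL-13 libraries held 13.1, 24.1, 29.5, 19.2, 20.4 and 23 TPM. The D3 range lay above that of each other group, and the other 3 groups overlapped one another. HAS3 was 1.84-fold higher in D3 spheroids than in monolayers by the ratio of means, a log2(TPM + 1) difference of 0.95 ± 0.14 (SE). Between untreated D11 and D3 spheroids the ratio was 0.521 and the log2 difference -1.01 ± 0.15. For IL-13 against untreated D11 spheroids the difference was -0.32 ± 0.17 as measured and -0.51 with the all-gene median taken off. It did not pass the threshold on TPM as deposited and did after median-of-ratios scaling (-0.56) or quantile normalization (-0.54). HAS3 overlaps CHTF8 on the opposite strand (7.6 to 55.8 TPM), and since strand handling is not stated, reads from the pair cannot be told apart.

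The hyaluronidase genes HYAL3, HYAL1 and HYAL2 lie next to one another on the minus strand of chromosome 3 (GRCh38, GENCODE 29), at chr3:50292831-50299468, chr3:50299889-50312381 and chr3:50317790-50322906. HYAL2, the GPI-anchored enzyme of the cell surface, gave most of their transcripts: 78.7 ± 4.47% of the summed TPM of the 3 in monolayers, 81.7 ± 1.95% in D3 spheroids, 84.4 ± 2.86% in IL-13 spheroids and 83.7 ± 1.97% in untreated D11 spheroids (SD). The 3 neighbours nevertheless ran in different directions. HYAL2 overlaps TUSC2, and HYAL3 overlaps NAA80 and IFRD2, all on the same strand, so the authors' counting could have split reads among them.

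HYAL1, the lysosomal hyaluronidase, was highest in untreated D11 spheroids, at 4.4 to 4.9 TPM in all 7 libraries. IL-13 libraries held 3.7, 2.5, 2.6, 2.6, 2.2 and 2 TPM, D3 libraries 1.9 to 3.5 TPM (median 2.7) and monolayers 0.7 to 3 TPM (median 1.95). No IL-13, D3 or monolayer library reached the lowest untreated D11 library, and those 3 groups overlapped one another. HYAL1 stood at 0.557 of its untreated D11 mean in IL-13 spheroids, a log2(TPM + 1) difference of -0.61 ± 0.14 (SE). It was 1.72-fold higher in untreated D11 than in D3 spheroids (log2 difference 0.65 ± 0.12). Once mitochondrial genes were removed, which lowers this comparison for genes expressed in both groups, the difference was 0.20 and missed the threshold. IL-13 library 1, at 3.7 TPM, was the IL-13 library nearest to the untreated ones. Without it the difference between IL-13 and untreated D11 spheroids was -0.69. HYAL1 was 6.13 ± 0.762% of the hyaluronidase sum in untreated D11 spheroids (SD, n = 7) and 1.80 ± 0.836% in monolayers (SD, n = 10).

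HYAL3, whose own enzyme activity is uncertain, was highest in monolayers and lowest in untreated D11 spheroids. Monolayers held 18.4 to 26.3 TPM (median 20.5), D3 libraries 8.9 to 15.7 TPM (median 13.7) and untreated D11 libraries 4.9 to 10.6 TPM (median 8.2). IL-13 libraries held 9.7, 7.6, 13.6, 11.1, 10.2 and 7.8 TPM and overlapped the untreated ones. Monolayers overlapped no spheroid library. The log2 difference of untreated D11 spheroids against monolayers was -1.33 ± 0.12 (SE), or -0.85 with the all-gene median taken off. For IL-13 against untreated D11 spheroids it was 0.33 ± 0.14 and just missed the threshold. It passed when untreated library 1, IL-13 library 2 or IL-13 library 6 was left out, with 0.42, 0.40 and 0.39.

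HYAL2 itself varied little. IL-13 libraries held 58.6, 75.3, 70.1, 71.9, 68.7 and 66.1 TPM, untreated D11 libraries 53.2 to 74.5 TPM (median 67.7), D3 libraries 62 to 81.7 TPM (median 71.5) and monolayers 69.1 to 103.2 TPM (median 87.4). Each group overlapped its neighbour in level. HYAL2 differed by -0.43 ± 0.07 (SE) on the log2 scale between untreated D11 spheroids and monolayers. With the all-gene median taken off the difference was 0.05, and after median-of-ratios scaling it had the opposite sign, 0.16. Between IL-13 and untreated D11 spheroids it was 0.02 ± 0.09. CEMIP, which is required for hyaluronan breakdown in skin fibroblasts, stayed at 0.3 to 0.5 TPM in IL-13 spheroids, 0.3 to 0.5 TPM in untreated D11 spheroids, 0.2 to 0.3 TPM in D3 spheroids and 0.2 to 0.4 TPM in monolayers. In a fit without the filter on low values (17874 genes) CEMIP differed by 0.19 ± 0.03 (SE) between untreated D11 and D3 spheroids, by 0.12 ± 0.03 between untreated D11 spheroids and monolayers and by 0.01 ± 0.04 between IL-13 and untreated D11 spheroids, at levels a few steps of the table's last decimal apart.

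CD44 was most abundant in monolayers and was higher in IL-13 than in untreated D11 spheroids. Monolayers held 148.5 to 184.7 TPM (median 163), D3 libraries 56.5 to 69.2 TPM (median 63.1) and untreated D11 libraries 57.9 to 67 TPM (median 61). The 6 IL-13 libraries held 74.4, 93.4, 103.8, 85.6, 95.3 and 93.2 TPM. All 6 lay above every untreated D11 and D3 library and below every monolayer. CD44 stood 1.47-fold higher in IL-13 than in untreated D11 spheroids, a log2(TPM + 1) difference of 0.55 ± 0.07 (SE), 0.35 of it beyond the all-gene median. IL-13 library 1 was again the nearest to the untreated group, and without it the difference was 0.60. D3 spheroids stood at 0.384 of the monolayer level (-1.37 ± 0.06), and untreated D11 and D3 spheroids overlapped (-0.01 ± 0.06). CD44 is made as several splice forms, which a table by gene does not separate.

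UGDH, the UDP-glucose dehydrogenase, was highest before spheroid culture. Monolayers held 17.9 to 20.5 TPM (median 19.3), D3 libraries 11.5 to 15 TPM (median 12.6) and untreated D11 libraries 8.3 to 11.9 TPM (median 10.8). IL-13 libraries held 6.8, 8.1, 11.6, 10.2, 10.9 and 11.3 TPM and overlapped the untreated ones. Monolayers overlapped no spheroid. UGDH stood at 0.546 of the monolayer mean in untreated D11 spheroids (log2 difference -0.83 ± 0.08, SE), and at -0.35 with the all-gene median taken off. For IL-13 against untreated D11 spheroids the difference was -0.13 ± 0.09 and did not pass the threshold. After median-of-ratios scaling and after quantile normalization it did, at -0.36 and -0.37.

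**Figure D2:**
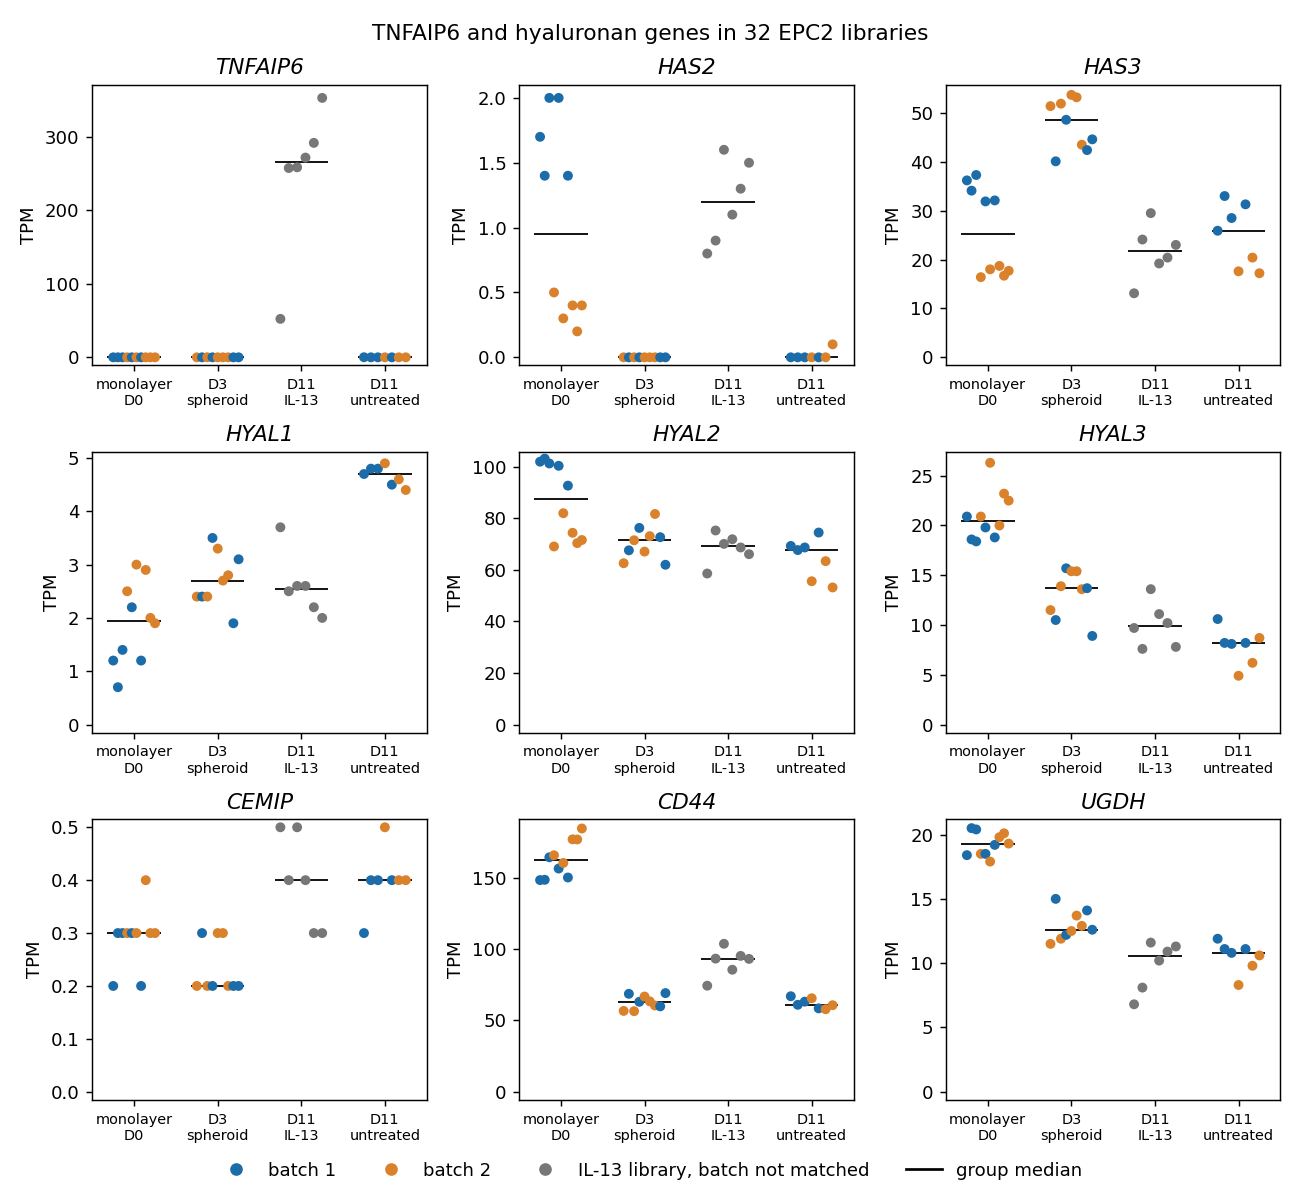
TPM (vertical axes, from 0) of the 9 genes in each of the 32 libraries by group, with the group median as a line and points coloured by batch where a library could be matched to one. TNFAIP6 is at 52.3 to 352.9 TPM in the IL-13 group and at no more than 0.1 TPM in the others, HAS3 is highest in D3 spheroids, and HAS2, HAS3 and HYAL2 split by batch in monolayers.

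Counted over the 8 genes tested, 3 were higher and 1 lower in IL-13 than in untreated D11 spheroids past the threshold, where 39.2% of all genes tested were higher and 8.49% lower. Both median-of-ratios scaling and quantile normalization gave 3 higher and 4 lower. In D3 spheroids against monolayers 2 were higher and 5 lower (12.7% of all genes were higher and 68.2% lower), with 3 and 2 after median-of-ratios scaling and 2 and 2 after quantile normalization. In untreated D11 against D3 spheroids 1 was higher and 3 lower (33.6% and 35.8% of all genes), with 0 and 5 once mitochondrial genes were removed. In untreated D11 spheroids against monolayers 1 was higher and 5 lower (21.0% and 63.5% of all genes), with 3 and 4 after median-of-ratios scaling and 2 and 5 after quantile normalization. The choice of genes used these contrasts, so nothing is read from the counts. These comparisons share libraries: the monolayers, the D3 spheroids and the untreated D11 spheroids each enter more than 1 of them. Without D3 libraries 4 and 7, 7 genes passed the threshold in D3 spheroids against monolayers and 4 in untreated D11 against D3 spheroids, as with them, and HAS3 differed by 0.97 and -1.03.

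**Figure D3:**
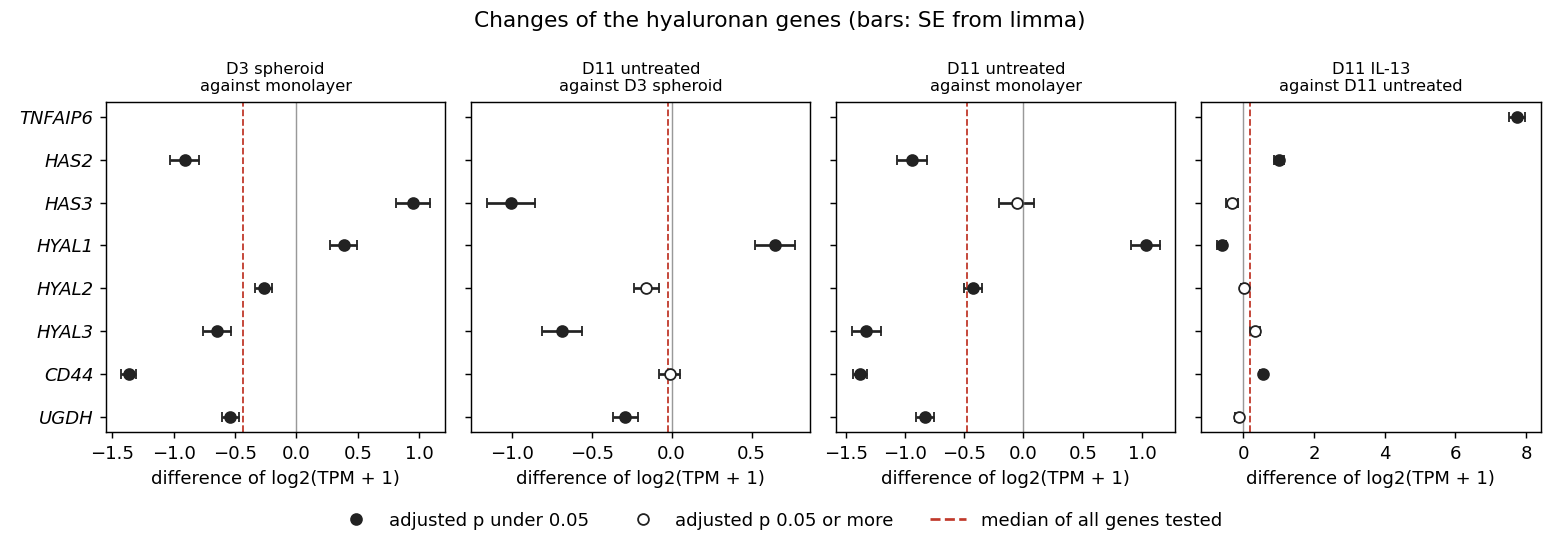
Difference of log2(TPM + 1) (horizontal axes) with limma's standard error for the 8 tested genes in 4 comparisons, filled where the adjusted p was under 0.05, and the median of all genes tested as a dashed line. TNFAIP6 is drawn for the IL-13 comparison only, where it stands at 7.73, and genes listed at or near 0 in both groups are left out, since both levels are then below the table's resolution.

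The difference between the 2 experiments was not used to choose the genes and could be tested. In monolayers, batch 2 held less HAS2 (0.2 to 0.5 TPM in batch 2, against 1.4 to 2 TPM in batch 1) and less HAS3 (16.4 to 18.7 TPM, against 31.9 to 37.3 TPM), with no overlap for either. The log2(TPM + 1) differences, batch 2 minus batch 1, were -0.99 ± 0.06 for HAS2 and -0.93 ± 0.07 for HAS3 (limma, adjusted p = 3.3e-10 for HAS3). Outside the IL-13 group, only batch 1 monolayers reached 1 TPM of HAS2. HAS2 thus entered this test only through libraries where it is high, and its p is not given. HYAL2 was also lower in batch 2, at 73.5 ± 5.14 TPM in batch 2 and 99.9 ± 4.16 TPM in batch 1 (SD, n = 5 each, limma adjusted p = 8.9e-06). HYAL1 was higher in batch 2, at 2.46 ± 0.503 TPM in batch 2 and 1.34 ± 0.546 TPM in batch 1 (limma adjusted p = 5e-04). CD44 was slightly higher, at 173 ± 9.70 TPM in batch 2 and 154 ± 6.87 TPM in batch 1 (limma adjusted p = 0.017). Among monolayers 62.1% of all genes tested differed between batches, beside 5 of the 8 here. TNFAIP6 is 1 of the 8 but was listed at 0 in all 10 monolayers and could not differ, so nothing is read from this count. HYAL3 (adjusted p = 0.16) and UGDH (0.81) did not pass the threshold.

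In untreated D11 spheroids HAS3 was again lower in batch 2, at 18.4 ± 1.74 TPM in batch 2 (SD, n = 3) and 29.7 ± 3.13 TPM in batch 1 (SD, n = 4), a log2 difference of -0.66 ± 0.09 (limma adjusted p = 6.2e-06). HYAL2 (-0.29 ± 0.08, limma adjusted p = 0.0092) and UGDH (-0.22 ± 0.08, limma adjusted p = 0.027) were lower too. Neither passed the threshold after median-of-ratios scaling, where UGDH had the opposite sign (0.03), or after quantile normalization. In this group 41.2% of all genes differed between batches. In D3 spheroids 0% of genes passed the threshold in limma, with 1796 genes at an unadjusted p under 0.05. HAS3 was there at 50.7 ± 4.15 TPM in batch 2 (SD, n = 5) and 43.9 ± 3.62 TPM in batch 1 (SD, n = 4). Without D3 libraries 4 and 7, chosen after seeing the data, 3992 genes passed and HAS3 was higher in batch 2 by 0.31. Those libraries were picked because they resembled the other batch. Leaving them out widens batch differences by construction, so these values test nothing.

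Changes with culture differed in size between experiments for some of these genes, by the interaction of group and batch. HAS3 was higher in D3 spheroids than in monolayers by 1.48 in batch 2 and by 0.35 in batch 1, and the difference of these changes was 1.14 ± 0.11 (limma adjusted p = 2.7e-08). Against D3 spheroids, untreated D11 spheroids held less HAS3, with log2 differences of -1.42 in batch 2 and -0.55 in batch 1 (limma adjusted p of the interaction = 5.9e-05). The direction was the same in both experiments. HAS2 differed by -0.44 in batch 2 and -1.43 in batch 1 between D3 spheroids, where it was listed at 0, and monolayers (interaction 0.99). With D3 spheroids at 0 in both experiments, this interaction only restates the batch difference of HAS2 in monolayers. HYAL2 changed between D3 spheroids and monolayers by -0.05 in batch 2 and -0.52 in batch 1 (limma adjusted p of the interaction = 0.00069). Batch 2 minus batch 1 was -0.44 for HYAL2 in monolayers and 0.03 in D3 spheroids. For HAS3 it was -0.93 and 0.20. Their interactions for D3 spheroids against monolayers thus lie mostly in the batch difference of monolayers given above. Interactions passed the threshold for 45.2% of all genes in D3 spheroids against monolayers, for 23.8% in untreated D11 against D3 spheroids and for 48.3% in untreated D11 spheroids against monolayers. For the IL-13 comparison no within-batch value could be had, since IL-13 libraries could not be matched to batches.

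Within groups, HAS3 and HYAL2 varied together over the 32 libraries (r = 0.816 with group means taken off), as did HAS2 and HAS3 (0.757), whereas HYAL1 ran against HAS2 (-0.591) and HAS3 (-0.542). These libraries share 2 batches, and the batch differences above enter these values. CD44 and TNFAIP6 had r = 0.477 and UGDH and TNFAIP6 r = 0.631 on the same basis. Both values rest almost wholly on the 6 IL-13 libraries, since TNFAIP6 was at no more than 0.1 TPM elsewhere. IL-13 library 1 was the lowest of these for TNFAIP6 (52.3 TPM), CD44 (74.4 TPM) and UGDH (6.8 TPM). For the other genes the closest companions over all 32 libraries were ANO1 and DCK for HAS2 (r = 0.942 and 0.920), ATP1B3 and F12 for HAS3 (0.922 and 0.865), and PDCD1LG2 and TPST1 for CD44 (0.985 and 0.979). DDHD2 and ZNF275 followed UGDH (0.970 and 0.964), DELE1 and EFNB1 followed HYAL3 (0.933 and 0.924), DHX30 and CCDC86 followed HYAL2 (0.935 and 0.929), and IGSF8 and SLC22A23 followed HYAL1 (0.875 and 0.848). These correlations largely follow the levels of the 4 groups.

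Of 56 further genes of the hyaluronan pathway, listed by role and not by how they moved, 33 reached 1 TPM in 6 libraries and were tested. With IL-13 against untreated D11 spheroids 11 rose (33.3%, against 39.2% of all genes tested) and 7 fell (21.2%, against 8.49%), with a median log2 difference of 0.14 over the 33 and 0.19 over all genes tested. After median-of-ratios scaling the split was 7 higher and 12 lower, and after quantile normalization 6 and 11. Among the 11 tested genes of precursor supply 4 rose (36.4%, against 39.2% of all genes tested) and 2 fell (18.2%, against 8.49%). This balance turned to 2 higher and 5 lower after median-of-ratios scaling and to 2 and 4 after quantile normalization. It was 3 and 2 once mitochondrial genes were removed. Shares of all genes called under these other scalings are not given here, so nothing is read from these shifts. HK2, a hexokinase that feeds glucose into these sugars, fell to 57.8 ± 36.8 TPM in IL-13 spheroids (SD, n = 6), against 212 ± 56.2 TPM in untreated D11 spheroids (SD, n = 7), a log2 difference of -1.93 ± 0.22 (SE, limma adjusted p = 2.3e-08). SLC35D1, which carries UDP-glucuronic acid and UDP-N-acetylgalactosamine into the endoplasmic reticulum, rose to 7.70 ± 1.48 TPM in IL-13 spheroids, against 4.34 ± 0.655 TPM in untreated D11 spheroids (0.60 ± 0.10, limma adjusted p = 2.5e-05).

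Of 4 breakdown genes tested, 3 rose and 1 fell with IL-13, where 39.2% of all genes tested rose and 8.49% fell. Under each of the 3 other scalings 2 were higher and 1 lower. HEXA, a lysosomal hexosaminidase subunit, rose to 10.2 ± 1.59 TPM in IL-13 spheroids, against 6.64 ± 1.22 TPM in untreated D11 spheroids (log2 difference 0.54 ± 0.11, limma adjusted p = 1.3e-04). CEMIP2, a transmembrane relative of CEMIP, fell to 0.467 ± 0.0816 TPM in IL-13 spheroids, against 0.929 ± 0.125 TPM in untreated D11 spheroids (-0.47 ± 0.08, limma adjusted p = 5e-05). Of 8 hyaluronan-binding proteins and receptors tested, 3 rose and 1 fell. TLR2, an innate immune receptor that hyaluronan fragments can engage, rose to 5.35 ± 0.606 TPM in IL-13 spheroids, against 2.96 ± 0.465 TPM in untreated D11 spheroids (0.76 ± 0.08, limma adjusted p = 6.2e-09). HAPLN3, a link protein, fell to 4.28 ± 0.904 TPM in IL-13 spheroids, against 5.60 ± 1.12 TPM in untreated D11 spheroids (limma adjusted p = 0.015). HMMR, a receptor made by dividing cells, stood at 0.567 ± 0.225 TPM in IL-13 spheroids and 0.314 ± 0.090 TPM in untreated D11 spheroids, which did not pass the threshold (limma adjusted p = 0.30). These HEXA, CEMIP2, TLR2, HAPLN3, HK2 and SLC35D1 calls held under all 3 other scalings, but after quantile normalization HEXA and SLC35D1 differed by only 0.30 and 0.37, and HAPLN3 by -0.56.

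The partners through which TSG-6 is known to act were mostly at or near 0. The genes of the inter-alpha-inhibitor heavy chains (ITIH1 to ITIH6) and of its light chain precursor (AMBP) reached at most 0.3 TPM in any library. PTX3, a pentraxin that binds TSG-6, was the only partner tested. It stood at 0.583 ± 0.306 TPM in IL-13 spheroids and 0.386 ± 0.177 TPM in untreated D11 spheroids, and did not pass the threshold (limma adjusted p = 0.25). In D3 spheroids it fell to 1.03 ± 0.433 TPM, against 22.3 ± 7.31 TPM in monolayers (log2 difference -3.49 ± 0.15, limma adjusted p = 2e-19). Of 9 genes for CD44 anchoring, shedding and splicing, 1 rose (11.1%, against 39.2% of all genes tested) and 3 fell (33.3%, against 8.49%) with IL-13. After median-of-ratios scaling or quantile normalization 0 were higher and 4 lower, and without mitochondrial genes 0 and 3. EZR, encoding the membrane linker ezrin, fell to 55.1 ± 2.37 TPM in IL-13 spheroids, against 71.2 ± 3.94 TPM in untreated D11 spheroids (-0.40 ± 0.08, limma adjusted p = 1.8e-04). MMP14, a membrane protease that can shed CD44, rose to 268 ± 53.2 TPM in IL-13 spheroids, against 209 ± 16.1 TPM in untreated D11 spheroids (0.41 ± 0.14, limma adjusted p = 0.019), a call lost under all 3 other scalings, where the difference stayed between 0.15 and 0.37.

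**Figure D4:**
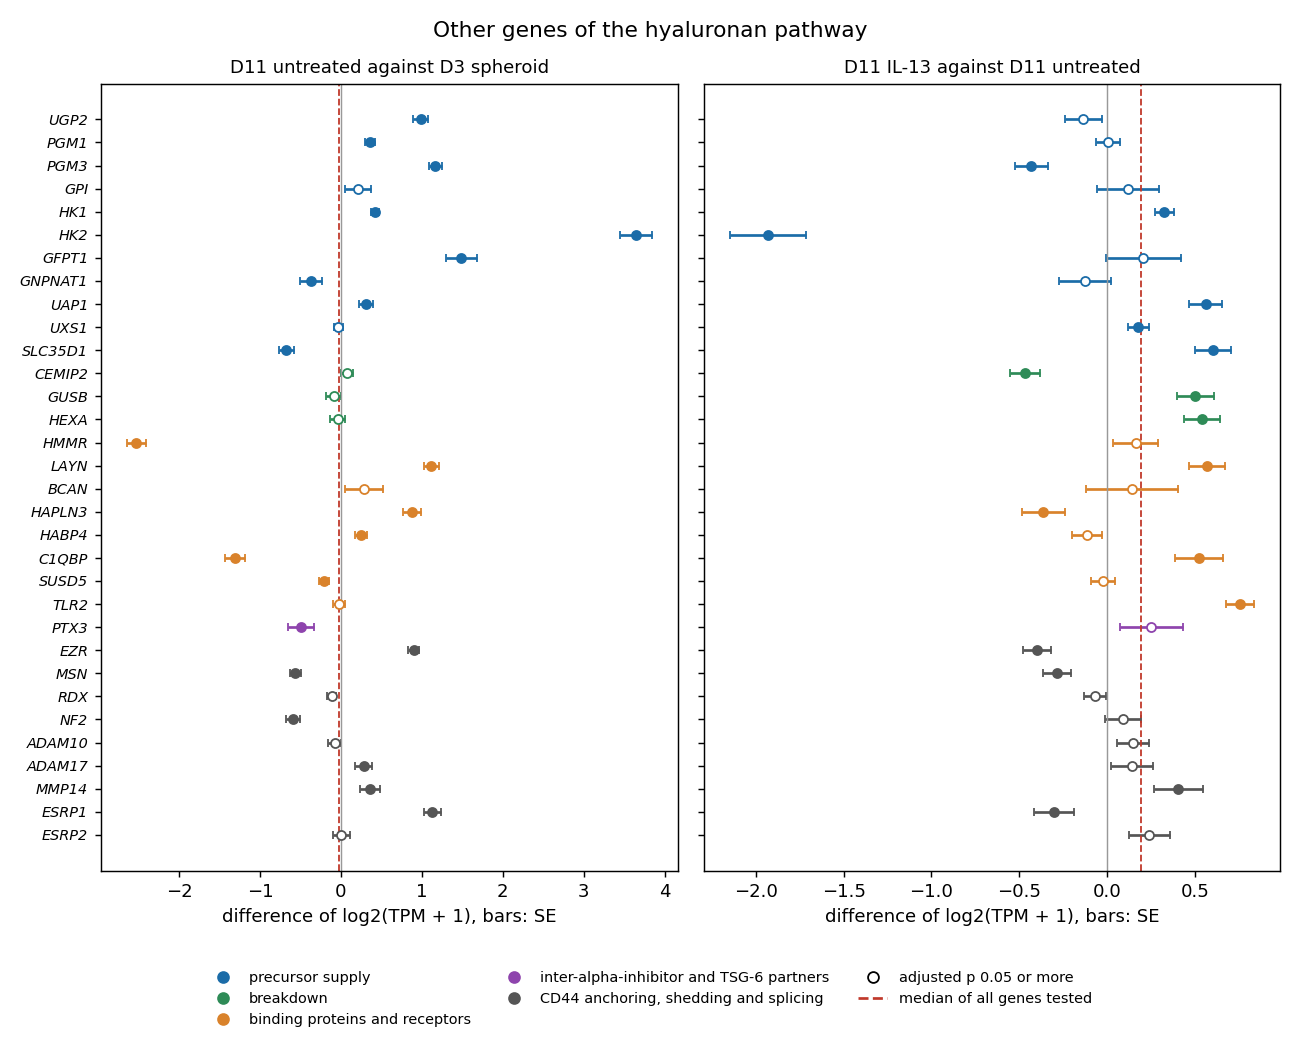
Difference of log2(TPM + 1) (horizontal axes, bars show limma's standard error) for 32 of the 33 tested genes of the pathway list in 2 comparisons, coloured by role and filled where the adjusted p was under 0.05, with the median of all genes tested as a dashed line. HK2 stands at 3.64 in untreated D11 against D3 spheroids and at -1.93 in IL-13 against untreated D11 spheroids, and HMMR at -2.53 in the first.

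The same list was followed during culture without IL-13. In D3 spheroids against monolayers 5 of the 33 rose (15.2%, against 12.7% of all genes tested) and 23 fell (69.7%, against 68.2%; median log2 difference -0.45, against -0.44 over all genes), with 12 and 13 after median-of-ratios scaling and 12 and 14 after quantile normalization. MMP14 fell to 166 ± 13.3 TPM in D3 spheroids, against 1028 ± 287 TPM in monolayers (-2.59 ± 0.11, limma adjusted p = 8.1e-19). Its monolayers split by experiment, with 728.7 to 816.3 TPM in batch 1 and 1246 to 1345 TPM in batch 2 (interaction -0.87, limma adjusted p = 2.4e-07). Other falls were those of UAP1, which makes UDP-N-acetylglucosamine (-1.47 ± 0.08, limma adjusted p = 7.3e-17), of CEMIP2 (-1.42 ± 0.07, limma adjusted p = 7.4e-18) and of SUSD5 (-1.52 ± 0.06, limma adjusted p = 7.6e-21). Interactions passed the threshold for CEMIP2 (0.53, limma adjusted p = 5.4e-05) and SUSD5 (0.24, limma adjusted p = 0.032), and not for UAP1 (limma adjusted p = 0.16). HMMR fell too (-0.73 ± 0.10, limma adjusted p = 2.1e-07), by a smaller amount close to the threshold after median-of-ratios scaling (-0.24, limma adjusted p = 0.044) and quantile normalization (-0.24, limma adjusted p = 0.046). UAP1 differed by -0.97 after median-of-ratios scaling, where HK2 and ESRP2 stood higher, at 1.39 and 1.27. HK2 (0.90 ± 0.18, limma adjusted p = 3.1e-05), BCAN, a brain proteoglycan gene at 1.26 ± 0.518 TPM in D3 spheroids and listed at 0 to 0.7 TPM in monolayers (limma adjusted p = 0.0012), and the splicing regulator ESRP2 (0.74 ± 0.10, limma adjusted p = 3.5e-08) rose.

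In untreated D11 against D3 spheroids 14 rose (42.4%, against 33.6% of all genes tested) and 9 fell (27.3%, against 35.8%), with 8 higher and 21 lower once mitochondrial genes were removed. D3 libraries held the larger mitochondrial share, so this removal lowers the difference of genes expressed in both groups. The share of all genes called under it is not given here, so nothing is read from these counts. Differences below without mitochondrial genes carry the same shift. Of the 11 tested genes of precursor supply 7 rose and 2 fell, but once mitochondrial genes were removed 4 were higher (HK2, GFPT1, UGP2 and PGM3) and the other 7 lower. HK2 rose to 212 ± 56.2 TPM in untreated D11 spheroids, against 16.4 ± 4.38 TPM in D3 spheroids (3.64 ± 0.19, limma adjusted p = 2.1e-16). Untreated D11 libraries held 155.1 to 186.8 TPM of HK2 in batch 1 and 236.5 to 306.8 TPM in batch 2 (limma adjusted p = 0.0047). ESRP1, which promotes epithelial splice forms of CD44, rose to 40.0 ± 5.79 TPM in untreated D11 spheroids, against 17.8 ± 2.37 TPM in D3 spheroids (limma adjusted p = 4.5e-11). LAYN, encoding the hyaluronan receptor layilin, rose to 2.73 ± 0.350 TPM in untreated D11 spheroids, against 0.767 ± 0.343 TPM in D3 spheroids (1.12 ± 0.09, limma adjusted p = 4.5e-12). HMMR fell to 0.314 ± 0.090 TPM in untreated D11 spheroids, against 6.58 ± 2.03 TPM in D3 spheroids (-2.53 ± 0.11, limma adjusted p = 5.1e-18). SLC35D1 (-0.68 ± 0.09, limma adjusted p = 1.5e-07), NF2, encoding merlin (-0.59 ± 0.09, limma adjusted p = 1.3e-06), and PTX3 (-0.50 ± 0.16, limma adjusted p = 0.0071) fell as well. CEMIP2 did not pass the threshold (0.08 ± 0.08, limma adjusted p = 0.38). Without mitochondrial genes ESRP1 was higher by 0.56 in place of 1.13, while SLC35D1, NF2 and PTX3 differed by -1.25, -1.16 and -0.93. In untreated D11 spheroids against monolayers 12 rose (36.4%, against 21.0% of all genes tested) and 20 fell (60.6%, against 63.5%), with 14 and 13 after median-of-ratios scaling, 15 and 13 after quantile normalization and 6 and 22 once mitochondrial genes were removed. The furthest were HK2 (4.54 ± 0.19, limma adjusted p = 9.5e-20) and PTX3 (-3.99 ± 0.16, limma adjusted p = 2.3e-20). In their roles BCAN (1.07 ± 0.23, limma adjusted p = 8.2e-05) and ESRP1 (1.10 ± 0.10, limma adjusted p = 1.6e-11, and 0.55 without mitochondrial genes) rose most, and HMMR (-3.26 ± 0.11, limma adjusted p = 8.6e-22), MMP14 (-2.23 ± 0.12, limma adjusted p = 1.1e-16), CEMIP2 (-1.34 ± 0.07, limma adjusted p = 8.9e-17) and UAP1 (-1.16 ± 0.08, limma adjusted p = 6.8e-14, and -0.60 after median-of-ratios scaling) fell most. Interactions passed the threshold for HK2, PTX3, ESRP1, MMP14, CEMIP2 and UAP1, and not for HMMR (limma adjusted p = 0.064), where 48.3% of all genes tested passed. The rise of BCAN differed between experiments too (interaction -1.81, limma adjusted p = 1.9e-06). In batch 2 untreated D11 spheroids held 0.3 to 1.2 TPM, against 0.5 to 0.7 TPM in monolayers, and these overlapped. In batch 1 untreated D11 spheroids held 2.7 to 3.3 TPM, against 0 to 0.1 TPM in monolayers.

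Among the immune markers CD68, which epithelial cells can also express, and CSF1R were expressed, the first lower on average in IL-13 than in untreated D11 spheroids and the second higher. CD68 held 316 ± 16.2 TPM in IL-13 spheroids, 436 ± 28.4 TPM in untreated D11 spheroids, 143 ± 19.6 TPM in D3 spheroids and 194 ± 44.7 TPM in monolayers (SD). CSF1R held 96.5 ± 6.29 TPM in IL-13 spheroids, 83.6 ± 7.00 TPM in untreated D11 spheroids, 71.3 ± 14.3 TPM in D3 spheroids and 39.6 ± 3.85 TPM in monolayers (SD), and its IL-13 and untreated D11 ranges overlapped. The summed level of the listed immune markers was 402.7 to 437.5 TPM in IL-13 spheroids, against 482.8 to 574.1 TPM in untreated D11 spheroids, most of it CD68. PTPRC, the pan-leukocyte marker, stood at 0.1 TPM in 1 of the 6 IL-13 libraries and in 5 of the 7 untreated D11 libraries, and was listed at 0 in all others. The part of these markers in the differences of CD44 and TLR2 was not tested.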

How the data were processed

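The authors deposited TPM, to 1 decimal, for 19345 genes in 32 libraries of total RNA. The genome build is hg38, per the submitters' processing notes. For strand handling, gene annotation, aligner and quantifier, the entry is: not given in the sources used here. The read number behind each TPM is unknown, and precision comes from the spread between libraries alone. The labels do not say whether libraries of 1 group within an experiment came from separate cultures, so p-values may measure technical spread.

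Values were taken as log2(TPM + 1), which understates changes of low genes. A gene was tested if 6 or more libraries had at least 1 TPM of it (12221 genes). A single model of group plus batch over the 32 libraries was fitted using limma (version 3.58.1, under R 4.3.3), with a trend on mean level. Calls were made at a Benjamini-Hochberg adjusted p under 0.05. The 26 columns outside the IL-13 group were matched to single samples by name. The 6 IL-13 columns were matched to their group only, and each carried that group's share of batch 2, 1 of 6. Batch differences and interactions were fitted on those 26 libraries. The fit was tested on simulated data. Figures used Python 3.11.15 and matplotlib 3.10.9.

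The genes, the pathway list of 56 symbols and the tests were chosen with earlier results of these data known. Pathway genes named are those with the largest rise and fall past the threshold in each role and comparison, with HAS1, CEMIP2 and HMMR. Companions are the genes of highest Pearson correlation. A few genes that these rules pick are not reported here. Alternatives changed the pseudocount, filter, scaling, batch term, libraries and replicate block. Positions are from GENCODE 29 and promoters from RefSeq; HAS2 has no promoter in the table used.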

Additional observations from a re-analysis of the deposited data

Results flagged for a closer look

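Among 27 sets of libraries, 1 gene in 1 group each, a single library lay far from the rest of its group: TNFAIP6 in IL-13 library 1, at 52.3 TPM, with the other 5 at 257.5 to 352.9 TPM. About 1 in 20 such sets is found by chance.

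The change between groups differed between the experiments, by limma's interaction of group and batch, in 11 instances, each given as the change in batch 2 minus that in batch 1 on the log2(TPM + 1) scale. For D3 spheroids against monolayers the values were 0.99 for HAS2, 1.14 for HAS3, -0.57 for HYAL1, 0.47 for HYAL2 and -0.27 for CD44. For untreated D11 against D3 spheroids they were -0.86 for HAS3, -0.32 for HYAL2 and -0.59 for HYAL3. For untreated D11 spheroids against monolayers they were 1.03 for HAS2, -0.60 for HYAL1 and -0.60 for HYAL3. Over all genes tested, 45.2%, 23.8% and 48.3% passed in these comparisons, in that order, so nothing is read from the number of instances. TNFAIP6, at no more than 0.1 TPM in these groups, could not be among them. HAS2 was listed at 0 in D3 spheroids and at 0 to 0.1 TPM in untreated D11 spheroids, so that its interactions are set by the monolayers. The value for HYAL1 in D3 spheroids missed the threshold without D3 libraries 4 and 7 (-0.48, limma adjusted p = 0.052). That alternative was chosen after seeing the data, because those libraries resembled the other batch.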

How the results depend on the processing

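Of 839 recomputed values of single genes, 783 kept their direction and their side of the threshold, 20 lost it, 19 gained it and 17 changed sign. For IL-13 against untreated D11 spheroids, 7 genes passed the threshold after median-of-ratios scaling and 7 after quantile normalization, in place of 4. For D3 spheroids against monolayers 4 passed after quantile normalization in place of 7, and the change between untreated D11 and D3 spheroids differed between batches for 1 gene in place of 3. Shares of all genes called under these scalings are not given here, so nothing is read from these counts. Signs turned as follows. HYAL2 in D3 spheroids against monolayers was 0.27 after median-of-ratios scaling and 0.10 after quantile normalization. In untreated D11 spheroids against monolayers it was 0.16 after median-of-ratios scaling. In IL-13 against untreated D11 spheroids it was -0.22, -0.19 and, without mitochondrial genes, -0.0075. In untreated D11 against D3 spheroids it was 0.011 in batch 1 alone. HAS3 in untreated D11 spheroids against monolayers was 0.52 after median-of-ratios scaling, 0.33 after quantile normalization and 0.066 in batch 2 alone. CD44 in untreated D11 against D3 spheroids was 0.041 after median-of-ratios scaling and 0.015 in batch 2 alone. The batch difference of UGDH in untreated D11 spheroids was 0.026 after median-of-ratios scaling. Median-of-ratios scaling centres the median of all genes near 0. Removing mitochondrial genes and fitting a batch alone do no such centring. Other causes were not tested.

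Leaving out 1 library at a time gave 7 to 7 genes past the threshold in D3 spheroids against monolayers, 4 to 5 in untreated D11 against D3 spheroids, 6 to 6 in untreated D11 spheroids against monolayers and 4 to 5 with IL-13, and 28 to 30, 22 to 24, 31 to 32 and 15 to 20 pathway genes. Under these omissions CD44 in untreated D11 against D3 spheroids ranged from -0.033 to 0.010, HYAL2 with IL-13 from -0.0036 to 0.068, and TNFAIP6 with IL-13 from 7.59 to 8.14. The library numbers of the labels do not pair samples: same-numbered libraries correlated at r = -0.44 to 0.36 in their deviations from the group means, and the replicate block gave 7, 4 and 6 genes and 28, 22 and 29 pathway genes in the 3 comparisons without IL-13. CEMIP and HAS1 lie at the resolution of the table's 1 decimal.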
